A study of Rattus norvegicus with 12 samples.

Results

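The genes described here are 10 rat genes of the NF-kB response, chosen by gene name from the 32883 genes in the files: Nfkb1 and Relb, which encode NF-kB subunits, the feedback inhibitors Nfkbia and Tnfaip3, the adhesion molecules Vcam1 and Icam1, the chemokines Ccl2, Cxcl1 and Cxcl10, and the chemokine receptor Ackr3. Their RNA was measured in 12 libraries of differentiated 1464R cells, 3 from each of 4 groups. The cells come from an immortalized rat neural stem cell line and were allowed to differentiate for 4 days in medium with serum and retinoic acid before a switch to serum-free medium with retinoic acid, after which all groups were kept for 48 h. Control cells received no virus, ethacrynic acid or edaravone, and Eda cells received edaravone, a free-radical scavenger, at 50 μmol/L at the medium switch. Per the methods of the study, DMSO, the solvent of edaravone, was at the same concentration in vehicle and edaravone treatments. TDP-43 + EA cells received adenoviruses that express TDP-43, an RNA-binding protein that aggregates in amyotrophic lateral sclerosis, at the medium switch, and 20 μmol/L ethacrynic acid, which depletes glutathione, at 24 h. TDP-43 + EA + Eda cells received the viruses, ethacrynic acid and 50 μmol/L edaravone at these same times. The sample labels name only a virus of the C-terminal fragment of TDP-43, whereas the methods of the study name viruses of the full-length protein and of the fragment. No library with the virus alone, an empty virus or ethacrynic acid alone was analysed here. In these libraries the effects of the virus, of TDP-43 and of ethacrynic acid therefore cannot be told apart. The study also describes cells with TDP-43 alone and with ethacrynic acid alone, which are not among the 12 libraries.

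NF-kB is a family of transcription factor dimers that rest in the cytoplasm, bound by inhibitors of the IkB family. Signals from cytokine receptors, pattern receptors or cell stress activate the IkB kinase complex, the inhibitor is degraded, and the dimers enter the nucleus and bind short sites near their target genes. Among these targets are the inhibitors themselves, which end the response, and in glia and endothelium also chemokines, which attract leukocytes, and adhesion molecules, to which leukocytes attach.

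Promoter windows of 5 genes are shown to let their letters be compared: Nfkbia, Tnfaip3, Cxcl10 and Vcam1, whose windows carry NF-kB type matches, and Ackr3, whose window carries none. None of the RNA results below rests on these letters. Each line is the RefSeq promoter window of assembly GRCr8, from 250 bases before to 50 bases after the annotated start, on the strand of the gene, with matches in capitals. The windows are chr6:78597023-78597322 (minus strand), chr1:15543930-15544229 (minus strand), chr14:15988816-15989115 (plus strand), chr2:206742734-206743033 (minus strand) and chr9:98247104-98247403 (plus strand).
Nfkbia: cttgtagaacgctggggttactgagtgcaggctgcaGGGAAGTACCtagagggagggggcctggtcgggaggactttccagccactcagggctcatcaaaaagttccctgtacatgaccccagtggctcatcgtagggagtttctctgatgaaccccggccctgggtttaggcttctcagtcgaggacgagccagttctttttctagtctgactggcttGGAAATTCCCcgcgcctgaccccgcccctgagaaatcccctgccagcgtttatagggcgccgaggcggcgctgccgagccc
Tnfaip3: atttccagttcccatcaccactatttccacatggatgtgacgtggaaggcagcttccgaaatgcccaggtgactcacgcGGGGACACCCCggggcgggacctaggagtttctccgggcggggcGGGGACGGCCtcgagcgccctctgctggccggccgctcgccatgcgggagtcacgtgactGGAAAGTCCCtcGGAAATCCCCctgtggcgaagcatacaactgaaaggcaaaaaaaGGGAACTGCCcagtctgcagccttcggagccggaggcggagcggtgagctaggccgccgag
Cxcl10: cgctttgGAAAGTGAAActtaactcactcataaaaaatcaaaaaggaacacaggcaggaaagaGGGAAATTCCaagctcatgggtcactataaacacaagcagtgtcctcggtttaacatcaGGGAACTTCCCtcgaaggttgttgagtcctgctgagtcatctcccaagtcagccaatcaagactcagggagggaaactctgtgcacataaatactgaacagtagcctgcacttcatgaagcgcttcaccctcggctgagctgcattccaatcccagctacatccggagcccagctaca
Vcam1: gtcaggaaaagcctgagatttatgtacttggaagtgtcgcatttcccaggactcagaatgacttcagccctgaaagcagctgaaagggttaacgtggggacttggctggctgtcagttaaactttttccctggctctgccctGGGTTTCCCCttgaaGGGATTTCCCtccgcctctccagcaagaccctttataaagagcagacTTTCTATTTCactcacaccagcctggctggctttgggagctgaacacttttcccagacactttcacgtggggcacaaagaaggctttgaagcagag
Ackr3: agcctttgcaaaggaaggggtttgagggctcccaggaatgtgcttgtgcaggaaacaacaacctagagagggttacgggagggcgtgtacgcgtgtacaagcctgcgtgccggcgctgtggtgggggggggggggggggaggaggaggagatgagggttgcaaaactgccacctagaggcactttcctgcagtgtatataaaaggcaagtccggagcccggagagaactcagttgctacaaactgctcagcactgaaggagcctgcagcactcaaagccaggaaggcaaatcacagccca

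The letters searched on both strands were, for the NF-kB type, GGGA or GGGG followed by any 4 bases and CC, and for the interferon type, the core of an interferon-response element, GAAA followed by any 2 bases and GAAA. Matches of the NF-kB type can overlap each other, and a run of capitals can hold more than 1 match. RefSeq gave windows for 8 of the 10 genes, not for Relb and Ccl2. An NF-kB type match was found in 7 of these 8 windows, in all but that of Ackr3, beside 30.5% of all 33469 rat windows of this length. Windows with 2 or more start positions numbered 6 of 8, beside 10.6% of all windows. The window of Tnfaip3 held 6 start positions and that of Nfkb1 held 4. Those of Cxcl10 and Cxcl1 held 3 each, and that of Icam1 held 1. In Vcam1 the matches begin 108 and 93 bases upstream of the start, and in Nfkbia 214 and 31 bases upstream. The interferon type occurred in Cxcl10, 243 bases upstream, and in Vcam1, 46 bases upstream, and in 3.92% of all windows. These matches describe letters in the reference and show no binding in these cells.

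**Figure D1:**
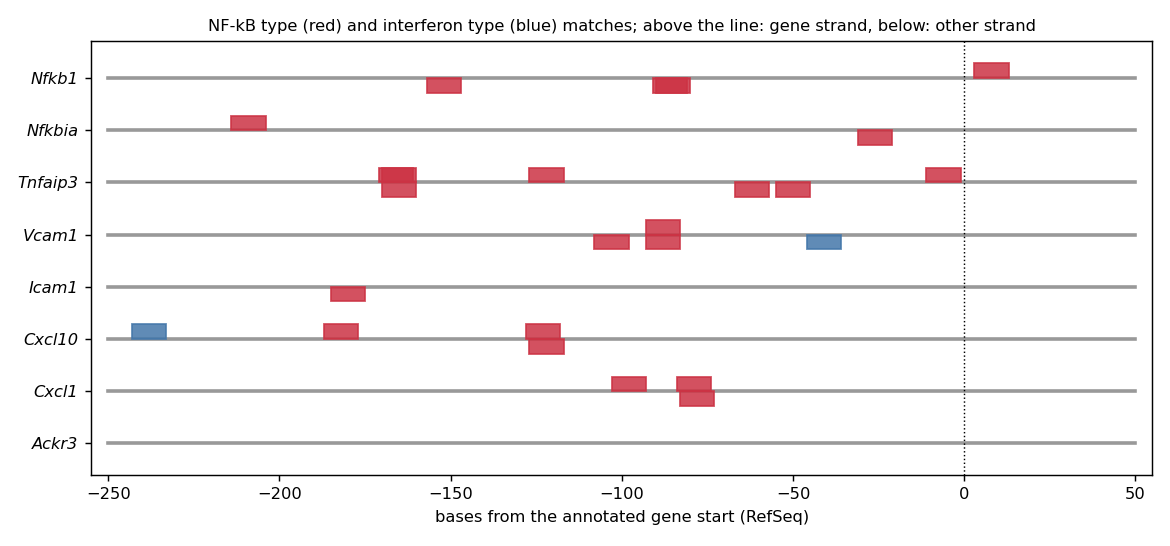
Map of letter matches in the promoter windows of 8 of the 10 genes, with distance in bases from the annotated start on the x axis and 1 gene per row. Red boxes mark NF-kB type and blue boxes interferon type matches, above the line for the strand of the gene and below it for the other strand; Ackr3 has no box, and Tnfaip3 has boxes at 6 start positions.

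Depth and labels were checked over the whole series. Totals ranged from 17412730 to 24635347 counts in 11 libraries and reached 43888256 in TDP-43 + EA + Eda replicate 1. Tardbp, which encodes TDP-43, lay between 34.5 and 41.1 CPM (counts relative to the library total, scaled by TMM factors, which correct for shifts in composition) in the 6 libraries without virus, between 1087 and 1796 CPM in TDP-43 + EA and between 2000 and 3672 CPM in TDP-43 + EA + Eda. Per the methods of the study, the viruses carry human TDP-43 and reads were aligned to the rat genome. How much of the Tardbp counts came from viral RNA was not tested. These counts were higher with edaravone among the transduced cells (log2 fold change 0.90 ± 0.21 SE, edgeR adjusted p = 0.00438), and the part of this gap in the results below was not tested. The labels speak of motor neuron-like cells, but none of 5 motor neuron markers, Chat, Mnx1, Isl1, Slc5a7 and Slc18a3, had enough counts to be tested, and their summed level was at most 0.279 TPM (transcripts relative to the library total, per length) in any library. Oligodendrocyte lineage markers were the most abundant list, at 32144 to 40348 summed TPM in Control, and all 10 of them fell in TDP-43 + EA, to 15119 to 19243 summed TPM. In such bulk samples fewer cells of a type and less RNA per cell cannot be told apart.

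Microglia and endothelium are known sources of chemokines and adhesion molecules, so their markers are given beside the results. Summed over 10 microglia and macrophage markers, the level was 1.97 to 6.14 TPM in Control, 4.28 to 5.39 TPM in Eda, 5.50 to 9.09 TPM in TDP-43 + EA and 8.19 to 14.2 TPM in TDP-43 + EA + Eda. Aif1, Cx3cr1, Ptprc, Trem2 and Tyrobp, defining genes of that lineage, had no count in any library of the last 2 groups. Tmem119 and Itgam had no count in Control, 3 and 8 counts over the 3 TDP-43 + EA libraries and 25 and 5 over the 3 TDP-43 + EA + Eda libraries. Of the 10 markers 2 could be tested, of which Cd68 rose in TDP-43 + EA. Over 9 endothelial markers the sum was 0.335 to 0.821 TPM in Control, 0.148 to 0.513 TPM in TDP-43 + EA and 0.192 to 0.347 TPM in TDP-43 + EA + Eda. The astrocyte sum was 587 to 721 TPM in Control, 530 to 619 TPM in TDP-43 + EA and 294 to 465 TPM in TDP-43 + EA + Eda, and the part of these shifts in the results was not tested.

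On the per-length scale, Nfkbia, Nfkb1 and Relb were the most abundant of the 10 genes in Control cells. Nfkbia came first at 61.1 ± 5.92 TPM (SD, n = 3), followed by Nfkb1 at 26.7 ± 3.35 TPM and Relb at 17.8 ± 1.65 TPM, and the libraries of these 3 genes did not overlap. Ccl2 followed at 2.34 ± 1.91 TPM, and the other 6 genes had means of 0.0757 to 0.930 TPM, each overlapping its neighbour in the order. In TDP-43 + EA + Eda cells Ackr3 had moved up to follow Nfkbia, at 30.996 ± 13.7 TPM, overlapping Nfkb1 at 27.9 ± 2.74 TPM, while Vcam1 reached 10.3 ± 0.672 TPM and Nfkbia 138 ± 12.1 TPM.

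**Figure D2:**
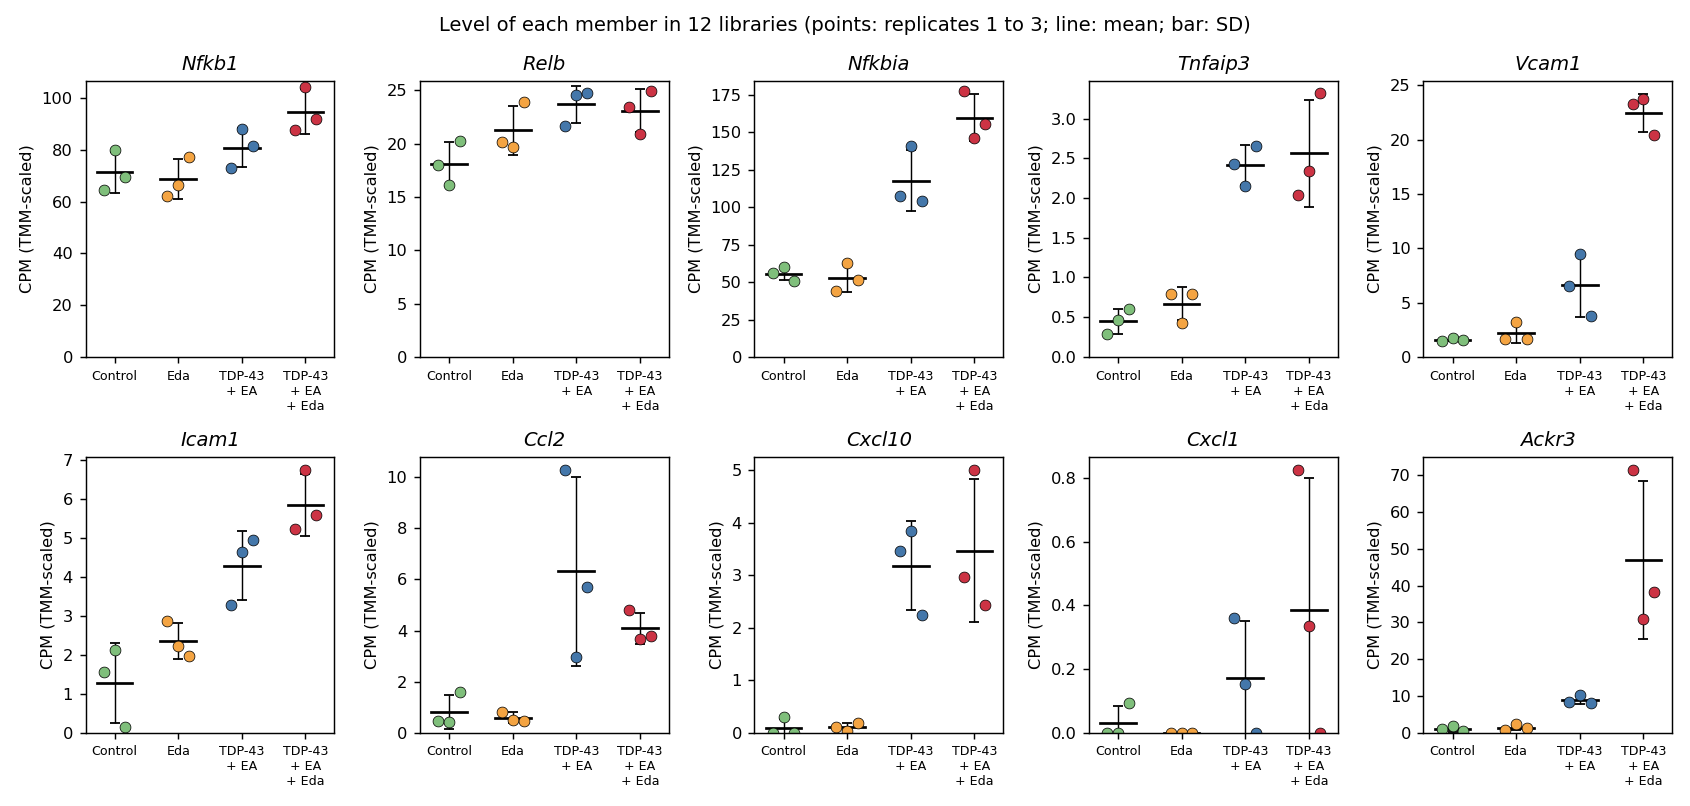
Level of each of the 10 genes in CPM (counts relative to the library total, TMM-scaled) on the y axis, by group on the x axis, with 1 point per library, a line at the mean of 3 and a bar of 1 SD (cut at 0 where it would pass below). Vcam1 and Ackr3 stand highest in all 3 TDP-43 + EA + Eda libraries, whereas Tnfaip3, Ccl2 and Cxcl10 overlap between both groups that received the viruses.

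To ask how the combination of TDP-43 and ethacrynic acid changed these genes, TDP-43 + EA was compared with Control. A gene is said to rise or fall where the edgeR quasi-likelihood test gave an adjusted p of at most 0.05 over the 13230 genes tested. Of the 10 genes, 9 passed the filter on low counts and 8 of these rose, and none fell, beside 19.6% of all tested genes that rose and 18.7% that fell. With a minimum log2 fold change of 1 the count was 7, beside 7.49% of all tested genes. In 8 of the 9 genes every TDP-43 + EA library lay above every Control library, as it did for 25.6% of all tested genes. The median log2 fold change was 2.03 over the 9 genes and 0.00 over all tested genes. The 10 genes were chosen with earlier results of these data known. Their counts, here and in the comparisons below, describe these genes and are no independent test of the pathway.

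The changes of the NF-kB subunit genes Nfkb1 and Relb were small, and those of other subunit genes are given further below. Nfkb1 (ENSRNOG00000023258, chromosome 2, 240773456 to 240866689 in Rnor_6.0), which encodes the p105 precursor of the p50 subunit, was at 64.4, 79.9 and 69.7 CPM in Control and at 73.1, 88.0 and 81.7 CPM in TDP-43 + EA. These libraries overlap, and the log2 fold change of 0.18 had a 95% interval of -0.06 to 0.42 (adjusted p = 0.224). Relb (ENSRNOG00000033235, chromosome 1, 80517411 to 80544825) encodes the subunit of the non-canonical branch of the pathway. It was at 18.0, 16.1 and 20.2 CPM in Control and at 21.7, 24.6 and 24.7 CPM in TDP-43 + EA, where every library lay above Control. The log2 fold change was 0.39 ± 0.13 (SE; adjusted p = 0.034), and this call was lost in 8 of 23 alternative settings, with the highest adjusted p of 0.134 when Control replicate 2 was left out. Leaving out Control replicate 1, TDP-43 + EA replicate 2 or TDP-43 + EA replicate 3 also ended it (adjusted p = 0.0829, 0.0946 and 0.0957).

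The feedback inhibitors rose more. Nfkbia (ENSRNOG00000007390, chromosome 6, 76267228 to 76270457) encodes IkB-alpha, which takes NF-kB back to the cytoplasm. Its level was 56.1, 60.1 and 51.0 CPM in Control and 108, 141 and 104 CPM in TDP-43 + EA, with a log2 fold change of 1.08 ± 0.14 (adjusted p = 2.93e-05). Tnfaip3 (ENSRNOG00000049517, chromosome 1, 14402913 to 14412807) encodes A20, a ubiquitin-editing enzyme that shuts off signalling above the IkB kinase. It had 7 to 13 counts per library in Control, or 0.29, 0.46 and 0.60 CPM, and reached 2.43, 2.16 and 2.66 CPM in TDP-43 + EA (log2 fold change 2.42 ± 0.46, adjusted p = 0.000726). The groups did not overlap for either inhibitor.

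Both adhesion molecules rose from low levels. Vcam1 (ENSRNOG00000014333, chromosome 2, 219071193 to 219097619), the ligand of an integrin on leukocytes, was at 1.48, 1.75 and 1.58 CPM in Control. In TDP-43 + EA its libraries were uneven, at 6.52, 9.50 and 3.73 CPM, yet all lay above Control, and the log2 fold change was 2.03 ± 0.33 (adjusted p = 0.000229). Icam1 (ENSRNOG00000020679, chromosome 8, 22035256 to 22047059), the ligand of another leukocyte integrin, was at 1.56, 2.13 and 0.139 CPM in Control and at 3.28, 4.62 and 4.94 CPM in TDP-43 + EA. The low Control library, replicate 3, held 3 counts of Icam1. Its log2 fold change was 1.73 ± 0.52 (adjusted p = 0.0168) and 1.21 without that library.

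Of the chemokines, Ccl2 and Cxcl10 rose, and Cxcl1 had too few counts for a test. Ccl2 (ENSRNOG00000007159, chromosome 10, 69412017 to 69413870), which attracts monocytes, was at 0.45, 0.42 and 1.58 CPM in Control and at 10.3, 2.98 and 5.69 CPM in TDP-43 + EA. The groups did not overlap, and the log2 fold change of 2.97 ± 0.53 (adjusted p = 0.000507) became 3.85 without Control replicate 3, its highest Control library. Cxcl10 (ENSRNOG00000022256, chromosome 14, 17210733 to 17212930), which attracts T cells and is induced by interferons as well as by NF-kB, was close to absent in Control, with 0, 7 and 0 counts. It had 77, 75 and 48 counts in TDP-43 + EA, or 3.46, 3.85 and 2.24 CPM, and rose by a log2 fold change of 4.93 ± 0.82 (adjusted p = 0.000277). That value depends on the 7 counts of Control replicate 2, without which Control has no count and the fitted value, 9.19, is no bound. The gene overlaps Art3 on the other strand, and the strand setting of the counting is not given in the sources used here. The Control libraries held 563 to 743 counts of Art3, among them replicates 1 and 3, which had no count of Cxcl10. Those of TDP-43 + EA held 203 to 300 counts of Art3 and those of TDP-43 + EA + Eda 75 to 82. The part of Art3 in the counts of Cxcl10 was not tested. Cxcl1 (ENSRNOG00000002802, chromosome 14, 18743685 to 18745457), which attracts neutrophils, had 0, 0 and 2 counts in Control and 8, 3 and 0 in TDP-43 + EA, so the groups overlap and no difference was detectable at this depth.

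Ackr3 (ENSRNOG00000019622, chromosome 9, 97355924 to 97367445) encodes a receptor that takes up and degrades Cxcl12 and Cxcl11 and does not signal through G proteins in the usual way. Its Control libraries held 0.985, 1.92 and 0.371 CPM and its TDP-43 + EA libraries 8.36, 10.1 and 8.11 CPM, with no overlap. The log2 fold change was 2.99 ± 0.46 (adjusted p = 0.00014), and 3.67 without Control replicate 2, the highest Control library.

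**Figure D3:**
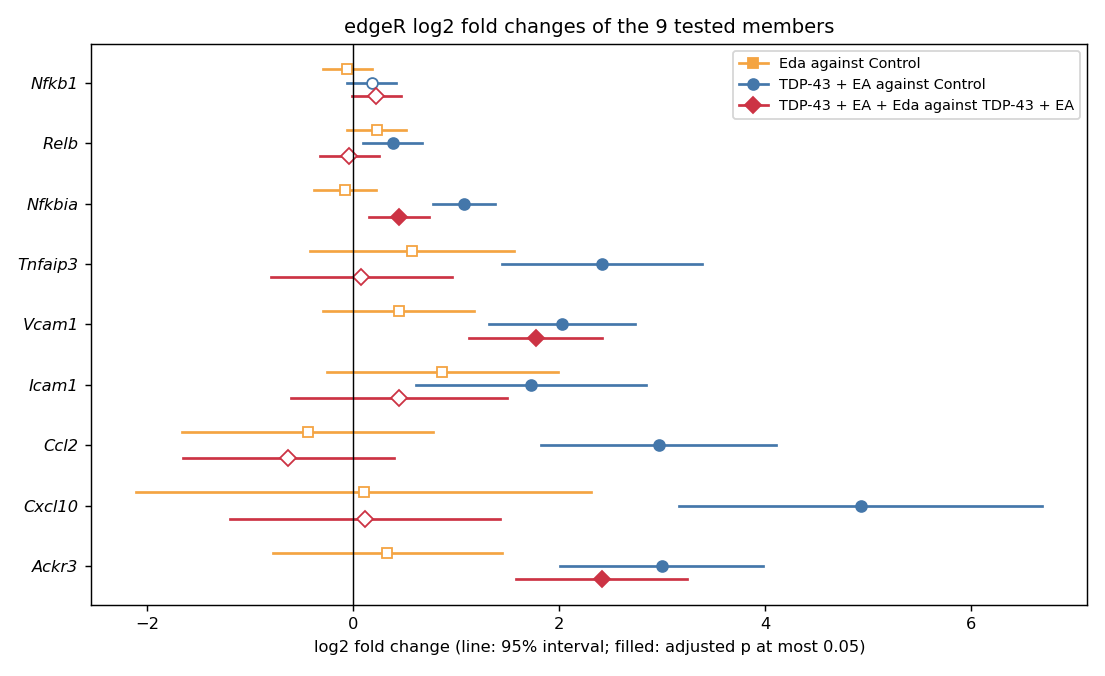
Log2 fold change (x axis) of the 9 tested genes (rows) in 3 comparisons, as points with 95% intervals; filled points have an adjusted p of at most 0.05. Blue points (TDP-43 + EA versus Control) are filled for 8 genes, red points (TDP-43 + EA + Eda versus TDP-43 + EA) for Nfkbia, Vcam1 and Ackr3, and orange points (Eda versus Control) for none.

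Edaravone alone was compared with Control to ask whether the drug acts on these genes in cells without the viruses. None of the 9 tested genes rose or fell, with log2 fold changes of -0.44 (Ccl2) to 0.87 (Icam1), and none had an unadjusted p under 0.05. In none of the 9 did every Eda library lie above every Control library, as it did for 5.5% of all tested genes. This comparison called 0 of all 13230 genes in edgeR (0.0% in either direction; 539 had an unadjusted p under 0.05) and 9 in DESeq2. The intervals still allow sizeable differences for the low genes: Vcam1 was at 1.69, 3.23 and 1.62 CPM in Eda, with an interval of -0.29 to 1.18, and Ackr3 at 0.751, 2.30 and 1.14 CPM, with an interval of -0.77 to 1.44. For the abundant genes they were narrower, at -0.37 to 0.22 for Nfkbia and -0.29 to 0.19 for Nfkb1. Cxcl1 had no count in the 3 Eda libraries, and Cxcl10 had 3, 1 and 4 counts.

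To ask what edaravone changed in the stressed cells, TDP-43 + EA + Eda was compared with TDP-43 + EA. Of the 9 tested genes 3 rose further, Ackr3, Vcam1 and Nfkbia, and none fell, beside 15.4% of all tested genes that rose and 15.0% that fell. With the minimum log2 fold change of 1 the count was 2, beside 1.90% of all tested genes. Every TDP-43 + EA + Eda library lay above every TDP-43 + EA library for 4 of the 9 genes, these 3 and Icam1, and for 19.5% of all tested genes. The median log2 fold change was 0.23 over the 9 genes and -0.02 over all tested genes.

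Ackr3 and Vcam1 moved most. For Ackr3 the libraries of TDP-43 + EA + Eda held 71.5, 30.97 and 38.4 CPM, against 8.11 to 10.1 CPM in TDP-43 + EA, so that all 3 stood apart although they differed among themselves. The log2 fold change was 2.41 ± 0.39 (adjusted p = 0.000389). Vcam1 was at 23.3, 23.7 and 20.4 CPM, against 3.73 to 9.50 CPM in TDP-43 + EA, and here the treated libraries were close together. Its log2 fold change was 1.77 ± 0.30 (adjusted p = 0.000577). Both calls were kept in all 23 alternative settings. The printed promoter window of Vcam1 holds NF-kB type matches at 2 start positions and that of Ackr3 holds none. Whether these letters bear on the changes was not tested.

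Nfkbia rose by less and less firmly. It was at 178, 146 and 156 CPM in TDP-43 + EA + Eda and at 108, 141 and 104 CPM in TDP-43 + EA. The groups came close but did not overlap on this scale, whereas on TPM they overlapped. The log2 fold change was 0.44 ± 0.14 (adjusted p = 0.0238), and the call was lost in 7 of 23 settings. Without TDP-43 + EA replicate 1 the value was 0.38 (adjusted p = 0.0905), without TDP-43 + EA replicate 3 it was 0.36 (adjusted p = 0.103), and without TDP-43 + EA + Eda replicate 1 it was also 0.36 (adjusted p = 0.0954).

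The other 6 tested genes did not pass the test in this comparison, and their intervals show what remains possible. Nfkb1 was at 87.7, 104 and 92.2 CPM with edaravone, 1 library below the highest of TDP-43 + EA, and its log2 fold change of 0.23 had an interval of -0.01 to 0.47. Relb was at 23.4, 20.9 and 24.97 CPM, overlapping TDP-43 + EA, with an interval of -0.32 to 0.25. Tnfaip3 was at 2.03, 2.34 and 3.32 CPM, overlapping as well, with an interval of -0.80 to 0.96. Icam1 was at 5.22, 6.74 and 5.57 CPM, all above TDP-43 + EA on this scale but not on TPM, and the interval of -0.60 to 1.49 includes 0. Ccl2 was at 4.78, 3.67 and 3.80 CPM, within the spread of TDP-43 + EA, and its interval was -1.64 to 0.39. Cxcl10 was at 2.97, 5.01 and 2.43 CPM, overlapping TDP-43 + EA, with an interval of -1.19 to 1.43. Cxcl1 had 30, 5 and 0 counts, the most in the deepest library, and remained too low for a test.

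These values depend on how libraries are scaled, because the TMM factors were 0.829 to 0.860 in TDP-43 + EA + Eda and 1.02 to 1.10 elsewhere. With library size only, the median log2 fold change of all tested genes in this comparison was -0.30 in place of -0.02, and 15.3% in place of 50.6% of all calls were upward; on log2(TPM + 1) in limma 16.9% were. In TDP-43 + EA + Eda versus Control the corresponding shares were 28.1% and 25.98% in place of 47.1%, and in TDP-43 + EA versus Control TPM gave 38.4% in place of 51.2%. With library size only, Ackr3 was higher by 2.12 and Vcam1 by 1.49 on the log2 scale, and both kept their calls. Nfkbia was higher by 0.16 there (adjusted p = 0.378), still above the median of all genes.

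**Figure D4:**
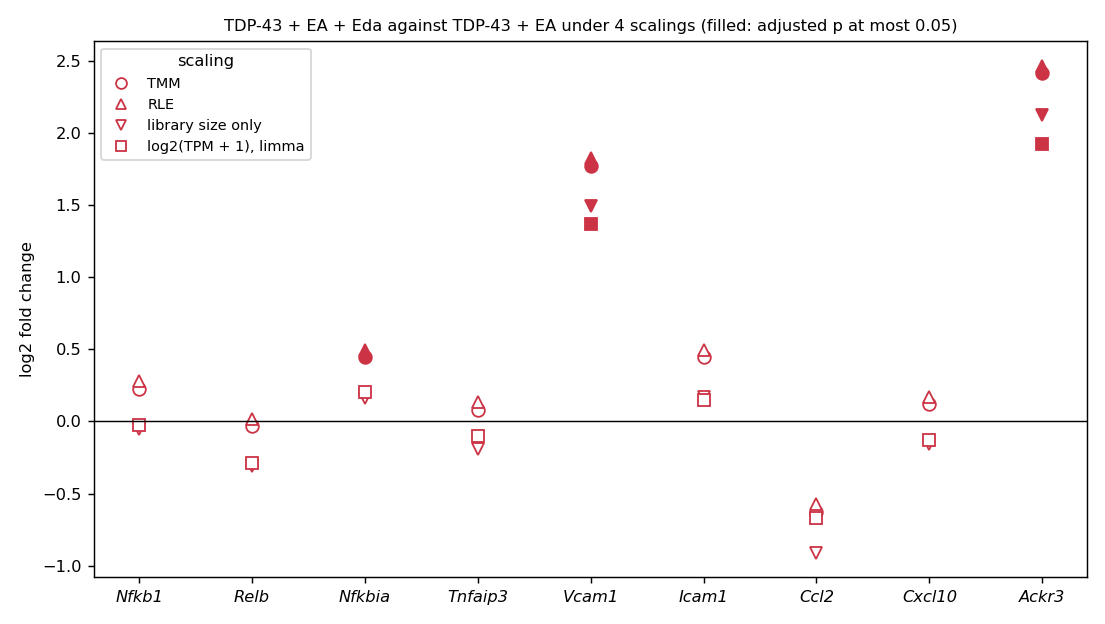
Log2 fold change (y axis) of the 9 tested genes (x axis) in TDP-43 + EA + Eda versus TDP-43 + EA under 4 scalings, 1 marker shape per scaling; filled markers have an adjusted p of at most 0.05. Ackr3 and Vcam1 are filled under all 4 scalings, Nfkbia under TMM and RLE but not under library size only or TPM.

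An interaction term tested whether the edaravone difference in stressed cells differed from that in Control cells. It passed for Ackr3 alone among the 9 tested genes, at 2.08 ± 0.65 on the log2 scale (adjusted p = 0.0422), beside 8.42% of all tested genes in this direction and 7.04% in the other. A count of 1 in 9 is near the first share and says nothing about these genes as a set. The upward share of all calls was 54.5% with TMM, 11.4% with library size only and 12.7% on TPM. Vcam1 had 1.33 ± 0.46 (adjusted p = 0.0616) and Nfkbia 0.52 ± 0.19 (adjusted p = 0.0853). The call for Ackr3 was lost in 13 of 21 settings, with the highest adjusted p of 0.204 and a value of 1.40 without Control replicate 2. Leaving out any of 9 of the 12 libraries ended it, with adjusted p from 0.051, the exceptions being Control replicate 3, Eda replicate 2 and TDP-43 + EA + Eda replicate 2. Vcam1 passed in 6 of 21 settings and Nfkbia in 4, both of them without Eda replicate 2 (1.73 and 0.67) and without TDP-43 + EA replicate 2 (1.69 and 0.67). Both also passed with a term for the replicate number, a replicate block (1.45 and 0.54, adjusted p = 0.0131 and 0.0369).

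Against Control, cells given all agents had all 9 tested genes higher, beside 27.1% of all tested genes that rose and 30.4% that fell, and 7 of them with the minimum log2 fold change of 1, beside 12.6%. In each of the 9 genes all TDP-43 + EA + Eda libraries lay above all Control libraries on TMM-scaled CPM, as they did for 28.9% of all tested genes. On TPM the libraries of Nfkb1 and Relb overlapped those of Control. Ackr3 was higher by a log2 fold change of 5.41 ± 0.47 (6.08 without Control replicate 2), Cxcl10 by 5.04 ± 0.83 (fitted at 9.31, which is no bound, without Control replicate 2) and Vcam1 by 3.80 ± 0.34 (adjusted p = 2.21e-07, 0.000104 and 2.66e-07). Tnfaip3 was higher by 2.50, Ccl2 by 2.34 (3.22 without Control replicate 3), Icam1 by 2.17 and Nfkbia by 1.52, and the highest adjusted p of these 4 was that of Icam1, 0.0025. Nfkb1, at 0.41 (adjusted p = 0.00604), and Relb, at 0.35 (adjusted p = 0.036), lost their calls with library size only, at 0.09 and 0.04, and on TPM, where Nfkb1 was at 0.063 to 0.065 (adjusted p of 0.667 to 0.744). Relb also lost it without Control replicate 1 (adjusted p = 0.0828), without Control replicate 2 (adjusted p = 0.143), and without TDP-43 + EA + Eda replicate 1 (adjusted p = 0.0706) or replicate 3 (adjusted p = 0.108). This comparison shares its libraries with the preceding ones.

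Beyond the 10 genes, 7 lists of other genes of the pathway hold 133 symbols, of which 66 genes could be tested. In TDP-43 + EA versus Control 24 of the 66 rose and 8 fell, beside 19.6% and 18.7% of all tested genes. In TDP-43 + EA + Eda versus TDP-43 + EA 19 rose and 6 fell, beside 15.4% and 15.0%. With library size only the latter split turned to 6 higher and 16 lower, and on log2(TPM + 1) to 6 and 15, so no direction is given for these lists as a whole in that comparison. Leaving out TDP-43 + EA replicate 3 gave 12 higher and 2 lower, and leaving out TDP-43 + EA + Eda replicate 1 gave 12 and 3. No gene of these lists rose or fell in Eda versus Control. The counts of single lists below stand beside these same shares of all tested genes, 19.6% and 18.7%, or 15.4% and 15.0% with edaravone. Several of these counts are near the shares.

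**Figure D5:**
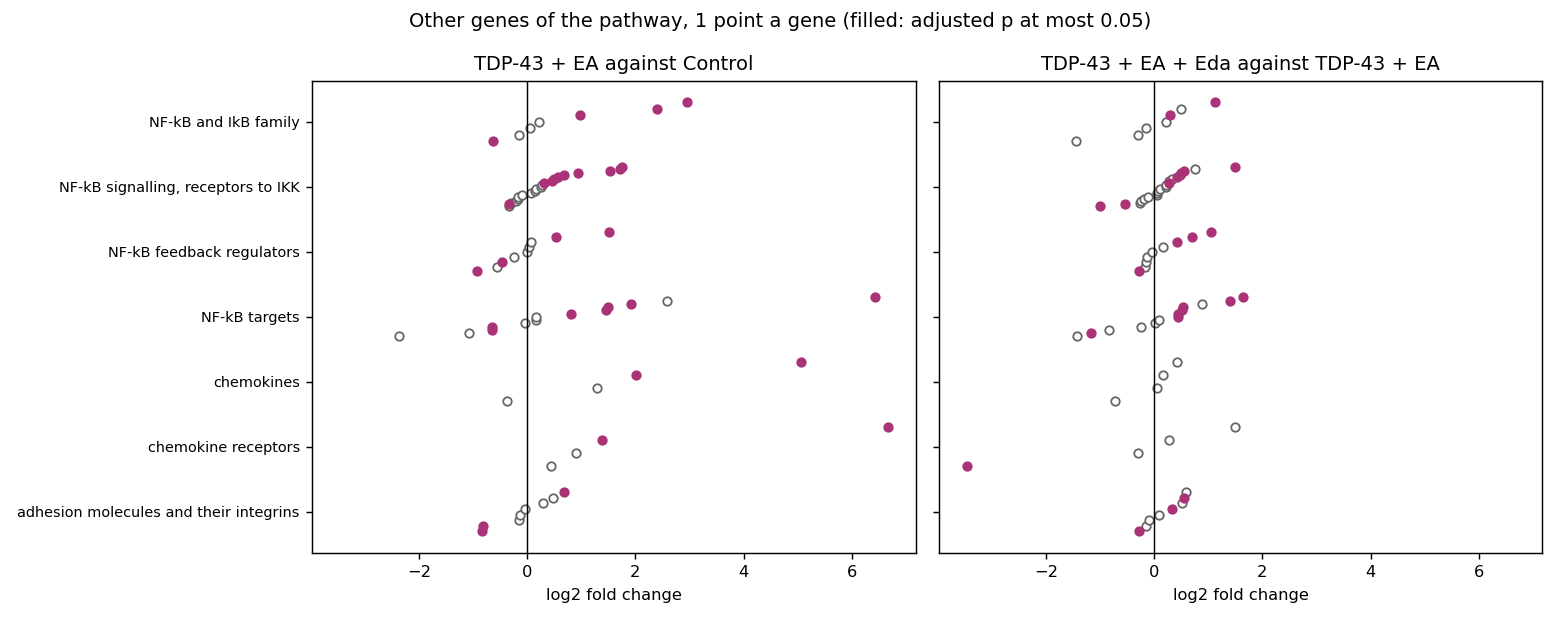
Log2 fold change (x axis) of the 66 tested genes of 7 other pathway lists (rows), 1 point per gene, in TDP-43 + EA versus Control (left) and TDP-43 + EA + Eda versus TDP-43 + EA (right); filled points have an adjusted p of at most 0.05. On the left 24 filled points lie above 0 and 8 below, and on the right 19 and 6.

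In the NF-kB and IkB family, 3 of 7 tested genes rose and 1 fell in TDP-43 + EA versus Control. Rel, which encodes the c-Rel subunit, went from 1.07, 1.17 and 0.835 CPM to 8.54, 5.24 and 10.1 CPM (log2 fold change 2.95 ± 0.35, adjusted p = 1.2e-05), Nfkbiz, an inducible nuclear IkB protein, rose by 2.41 and Nfkb2, the precursor of p52, by 0.98. Nfkbib, which encodes IkB-beta, fell by 0.63. With edaravone in stressed cells 2 of 7 rose and none fell: Nfkbiz by 1.12 (adjusted p = 0.013), from 12.5, 7.60 and 6.29 CPM to 27.4, 10.5 and 19.04 CPM with overlapping libraries, and Rela, the p65 subunit, by 0.29, a call lost with library size only. Both calls were lost without TDP-43 + EA replicate 3 (adjusted p = 0.0631 for Nfkbiz and 0.0681 for Rela) and without TDP-43 + EA + Eda replicate 1 (0.0974 and 0.0728), and that of Rela also without TDP-43 + EA replicate 1 (0.074).

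Among 21 tested genes from receptors to the IkB kinase, 9 rose and 1 fell in TDP-43 + EA versus Control. Map3k14, the kinase NIK of the non-canonical branch, led with 11.7, 8.89 and 9.19 CPM in Control and 30.9, 35.9 and 30.8 CPM in TDP-43 + EA (log2 fold change 1.71 ± 0.18, adjusted p = 3.62e-06). Traf3, Tab2 and Ripk1, adaptors and a kinase of receptor complexes, rose by 0.68, 0.58 and 0.49. In TDP-43 + EA + Eda versus TDP-43 + EA 6 rose and 2 fell. Map3k14 rose again, to 83.7, 82.2 and 110 CPM, without overlap (1.498 ± 0.17, adjusted p = 3.03e-05), while Tradd, the adaptor of the TNF receptor, fell by 1.00. Of 9 tested feedback regulators 2 rose and 2 fell in TDP-43 + EA versus Control, beside 19.6% and 18.7% of all tested genes. Zc3h12a, an RNase that degrades inflammatory mRNAs, rose by 1.51, whereas Tnip1 and Tnip2, which bind A20, fell by 0.92 and 0.46. In stressed cells given edaravone 3 rose and 1 fell, with Zc3h12a higher by 1.04 (adjusted p = 0.0105, and 0.0585 without TDP-43 + EA + Eda replicate 1) and Tnip2 by 0.71. The third that rose, N4bp1, at 0.43, lost its call in 7 of 23 alternatives, among them without TDP-43 + EA replicate 3 and without TDP-43 + EA + Eda replicate 2 or 3 (adjusted p of 0.0552 to 0.0709). Rbck1, a part of the linear ubiquitin ligase, which fell by 0.28, lost it in 14 of 23, 9 of them with 1 library left out, Control and Eda libraries included (adjusted p of 0.0522 to 0.226 without 1 library).

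Of 13 tested further NF-kB targets 5 rose and 2 fell in TDP-43 + EA versus Control. Ier3, an early response gene that acts on cell survival, was at 3.73, 5.43 and 3.34 CPM in Control and at 221, 602 and 264 CPM in TDP-43 + EA (log2 fold change 6.43 ± 0.39, adjusted p = 4.39e-08). Irf1, a transcription factor of interferon responses, rose by 1.91, F3, tissue factor, by 1.49 and Sod2, the mitochondrial superoxide dismutase, by 1.45. With edaravone in stressed cells 6 rose and 1 fell: Ier3 reached 1104, 916 and 857 CPM (1.40 ± 0.29, adjusted p = 0.00272), Gadd45b, a stress sensor, went from 215, 227 and 238 CPM to 710, 669 and 739 CPM (1.64 ± 0.11, adjusted p = 1.62e-06), and Psmb9, an immunoproteasome subunit, fell by 1.16. Each of these genes has other known inducers besides NF-kB.

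Most other chemokines were too low to test: of 26 in the list, 22 had too few counts, 9 of them no count in any library, and the largest count of these 22 was 37. Of the 4 tested, Cxcl16, a membrane-anchored chemokine, went from 1.11, 0.788 and 1.11 CPM in Control to 3.69, 5.13 and 3.40 CPM in TDP-43 + EA (log2 fold change 2.01 ± 0.34, adjusted p = 0.000314), and Ccl25 went from 2 counts in all of Control to 72 in TDP-43 + EA (5.06 ± 1.08, adjusted p = 0.00192). Neither changed in the test with edaravone, at 0.06 and 0.17. Cxcl12, the ligand of Ackr3, was at 12.1, 24.3 and 11.2 CPM in Control, 9.32, 19.1 and 8.43 CPM in Eda, 32.8, 55.6 and 28.5 CPM in TDP-43 + EA and 10.1, 49.5 and 12.2 CPM in TDP-43 + EA + Eda. All TDP-43 + EA libraries lay above Control, but the test over all 12 libraries without a replicate block did not pass (1.29 ± 0.55, adjusted p = 0.0813). It did pass with only the 2 compared groups in the fit (adjusted p = 0.00947). The same held without TDP-43 + EA + Eda replicate 2 (adjusted p = 0.00863) or Control replicate 2 (1.74, adjusted p = 0.0459). Replicate 2 was the highest library in every group.

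Of 4 tested chemokine receptors, Cxcr1, a receptor known from neutrophils, had no count in the 6 libraries without virus and 34 counts over the 3 TDP-43 + EA libraries, at least 4.26-fold higher than a floor of 3 counts per Control library. Ccrl2, an atypical receptor, rose by 1.39 (adjusted p = 0.0357), a call lost when any of the 6 Control or TDP-43 + EA libraries was left out (adjusted p of 0.0522 to 0.12). Ackr4, a scavenging receptor, was at 0.989, 0.873 and 1.21 CPM in TDP-43 + EA and fell by a log2 fold change of 3.46 with edaravone, to 0.0825, 0 and 0.178 CPM (adjusted p = 0.0252). That call was lost without TDP-43 + EA replicate 1 or 3 (adjusted p = 0.0547 and 0.0683) and without TDP-43 + EA + Eda replicate 1 or 2 (0.0928 and 0.0711). Cxcr4, the signalling receptor of Cxcl12, did not pass the test in either comparison, at 0.44 and 0.27. Of 8 tested adhesion genes 1 rose and 2 fell in TDP-43 + EA versus Control, beside 19.6% and 18.7% of all tested genes. Itgal, the alpha chain of the Icam1 receptor, had a log2 fold change of 0.69. Its call was lost without any Control library, Eda replicate 1 or TDP-43 + EA replicates 1 or 2 (adjusted p of 0.0507 to 0.131). The junction and adhesion proteins Mcam and Jam2 had log2 fold changes of -0.81 and -0.83. In stressed cells given edaravone Jam3 and Itgb1, the beta chain of the Vcam1 receptor, rose by 0.55 and 0.34, a pair of calls lost with library size only, and Mcam fell by 0.28, a call lost without TDP-43 + EA replicate 3 (adjusted p = 0.067) and without TDP-43 + EA + Eda replicate 2 or 3 (0.0595 and 0.0671).

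The patterns of the 10 genes across libraries were compared as a description, with Pearson correlations of log2 CPM over 12 libraries that share 4 groups. Ackr3 was most like Nfkbia (r = 0.970) and Vcam1 (r = 0.962) among the tested members, Tnfaip3 most like Cxcl10 (r = 0.930) and Ccl2 (r = 0.902). The lowest r of any pair was 0.421, between Relb and Icam1. Over all tested genes the nearest pattern to Ackr3 was that of Btg2 (r = 0.992), to Vcam1 that of Upf1 (r = 0.989), to Nfkbia that of Ppp2r3b (r = 0.995), to Cxcl10 that of Lrrc4c (r = 0.981), to Tnfaip3 that of Wdr3 (r = 0.974) and to Ccl2 that of AABR07067829.1 (r = 0.955). For Nfkb1 it was AABR07002945.1 (r = 0.963), for Relb Kdm6a (r = 0.916) and for Icam1 Jade1 (r = 0.912).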

How the data were processed

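RNA was sequenced by the authors from 12 libraries, 3 per group as the labels give them. Nothing in the labels says whether replicates were separate cultures. The study names 3 experiments but does not tie them to replicate numbers. The p-values thus measure the spread between these libraries, and whether that spread is technical or between experiments is not given. The submitters' processing notes name bcl2fastq 2.20, DRAGEN, Rnor_6.0, R 3.6.0 and DESeq2 1.26.0. The expected counts that the authors deposited are estimates of reads per gene without normalization. The deposited TPM values were scaled by the authors per transcript length and library. The sources used here do not give the strand setting or the treatment of shared reads.

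The expected counts were rounded to whole numbers and analysed in R 4.3.3 with edgeR 4.0.16: its default filter left 13230 of 19477 genes with a count; TMM scaling and a robust quasi-likelihood model with the group as its only term were used over all 12 libraries, with two-sided tests and Benjamini-Hochberg adjustment in each comparison. CPM are TMM-scaled, and intervals are 95% intervals of the fit. TPM served to compare levels between genes. For a group without counts a floor of 3 counts in each library was used; it covers counting error alone. No pair of replicates was a near copy. The code was tested on simulated data. Python 3.11.15, pandas 2.3.3 and matplotlib 3.10.9 were used for tables and plots.

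The 10 genes and all lists were chosen with earlier results of these data known. Named genes are the 10, the 4 genes of each other pathway list with the smallest adjusted p in TDP-43 + EA versus Control and in TDP-43 + EA + Eda versus TDP-43 + EA, the genes most alike in pattern, Tardbp, Art3 and cell type markers; Art3 was named after its values were seen. Alternatives were RLE factors, library size only, no filter and a stricter filter, DESeq2 1.42.0 with and without shrinkage, limma 3.58.1 on log2(TPM + 1) and log2(TPM + 0.1), fits of the compared groups only, a replicate block, and leaving out each library.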

Additional observations from a re-analysis of the deposited data

Results flagged for a closer look

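The edaravone difference of Ackr3 was larger with TDP-43 + EA than without, by 2.08 ± 0.65 (SE) on the log2 scale in the edgeR interaction test (adjusted p = 0.0422, and 0.012 to 0.204 over 21 alternatives). This call was lost in 13 of the 21 alternatives. Of all tested genes 8.42% were called in this direction. All 3 TDP-43 + EA + Eda libraries lay above all 3 TDP-43 + EA libraries, whereas Eda and Control libraries overlapped. Groups of 3 libraries were too small for a test of single outlying libraries.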

How the results depend on the processing

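In all 23 alternatives Vcam1 and Ackr3 kept their calls in the 3 comparisons that involve the viruses, and Nfkbia, Tnfaip3, Icam1, Ccl2 and Cxcl10 kept theirs in TDP-43 + EA versus Control and in TDP-43 + EA + Eda versus Control. Directions that turned, none of them called, were in TDP-43 + EA + Eda versus TDP-43 + EA: Nfkb1 to -0.049 with library size only and -0.026 and -0.027 on TPM with pseudocounts of 1 and 0.1 (-0.026 on TPM of all genes); Relb to 0.018 with RLE and 0.019 in both DESeq2 fits (-0.092 to 0.033 without 1 library); Tnfaip3 to -0.19 with library size only, -0.099 and -0.17 on these TPM scales (-0.15 to 0.23 without 1 library); and Cxcl10 to -0.16, -0.13 and -0.16 under these same 3 settings (-0.23 to 0.31 without 1 library). Relb, called in TDP-43 + EA + Eda versus Control, turned there to -0.020 and -0.021 on TPM. The cause was not tested, beyond the change of scaling itself.

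Edaravone alone called 0 genes in edgeR, 1 without a filter or with the compared groups only, 2 on TPM of all genes and 9 in both DESeq2 fits; leaving out 1 library gave 0 to 1. For the interaction, 1 of the 9 genes was called higher, against 0 with library size only and on log2(TPM + 0.1), 2 in DESeq2 and on log2(TPM + 1) and 3 with the replicate block (0 to 3 without 1 library); Relb was called lower, as 1 gene, with library size only and in the TPM fits; and 2045 genes in all became 3304, 3229 and 3187 with library size only and on TPM with pseudocounts of 1 and 0.1 (1356 to 2606 without 1 library). Other pathway genes higher and lower with library size only, on log2(TPM + 1), on log2(TPM + 0.1) and on TPM of all genes were 6, 6, 5 and 5 against 16, 15, 15 and 14 in TDP-43 + EA + Eda versus TDP-43 + EA (12 to 19 and 2 to 7 without 1 library), and 20, 20, 19 and 19 against 22, 24, 24 and 21 in TDP-43 + EA + Eda versus Control (31 and 13 in the TMM fit). In TDP-43 + EA versus Control 13 in place of 8 were lower in both filtered TPM fits.

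The libraries were not taken as pairs, since no source says that a replicate number marks a shared culture or day, although the study names 3 experiments. Same-numbered libraries correlated at 0.0216 to 0.134 over 18 pairs, 3 of them over 0.1, and other pairs at -0.0785 to 0.0152. All 12 libraries were most like the library of their own number in every other group. The library codes also run in a separate block for each replicate number, but no label says what a block was. Both are hints of shared experiments, which the fit with the group as its only term does not use. The replicate block moved the genes called from 5065 to 5503 in TDP-43 + EA versus Control and from 4026 to 4612 in TDP-43 + EA + Eda versus TDP-43 + EA. With it the Vcam1 and Nfkbia interactions passed, at 1.45 and 0.54 (adjusted p = 0.0131 and 0.0369). Cxcl12 passed too, at 1.34 in TDP-43 + EA versus Control (adjusted p = 0.000303) and at -0.97 in TDP-43 + EA + Eda versus TDP-43 + EA (adjusted p = 0.0043, and -1.81 with an adjusted p of 0.00455 without TDP-43 + EA + Eda replicate 2 and no block). Shrunken fold changes were not run for the interaction. Depth limits Cxcl1, and Cxcl10, Tnfaip3 and Icam1 in Control, which rest on a few counts per library.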
